A study of Mus musculus with 6 samples.

Results

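The integrated stress response and the amino acid supply genes it controls were examined as a module of 41 genes, taken by symbol from a list of the pathway's genes. The list uses no measured value in its rule, but it was drawn up with earlier results of these data known. They matched 42 of the 54532 gene IDs of the count matrix, because Ddit3 is carried by 2 overlapping gene models. The RNA came from subcutaneous tumours of G422, a mouse glioblastoma line, grown in Kunming mice. In 3 tumours the cells carried the lentiviral construct labelled shNgb, a hairpin against the neuroglobin gene by its name and by the study's title, and in 3 tumours the vector control, shVec. All 6 tumours were otherwise labelled untreated. The description of the design names Ngb rather than a hairpin as what was introduced. The tumours are called independent, whether each came from its own mouse is not stated, and p-values therefore measure the spread between these tumours.

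The libraries held 19630319 to 25620667 reads, of which the 42 IDs took 0.654% to 0.861%. Ngb itself was counted with 28, 23 and 13 reads under shVec and with 18, 19 and 11 under shNgb. Its log2 fold change of -0.59 had a 95% interval from -1.55 to 0.37, so a knockdown could not be read from these libraries. Of 10 glial and neural markers, Vim, Nes, Cd44, Sox9 and Sox2 were expressed and tested. All 5 had negative log2 fold changes (median -0.11, from -0.51 for Sox9 to -0.02 for Vim). Nes alone was lower at an unadjusted p under 0.05 and without overlap, where 1.22% and 3.43% of all tested genes were. By contrast, Olig2 had 0 reads in every tumour and Gfap, Fabp7, S100b and Prom1 had at most 8 reads in any tumour. In bulk tumours, fewer cells of a type and less RNA per cell cannot be told apart.

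The integrated stress response starts with kinases that phosphorylate the translation factor eIF2alpha, each sensing a different stress such as haem shortage, misfolded protein in the endoplasmic reticulum or uncharged tRNA. General translation then slows while the mRNA of the transcription factor ATF4 is translated more, and ATF4, often with C/EBP partners, induces genes that make, import and load amino acids onto tRNA. Prolonged signalling brings in the factor CHOP (Ddit3) and the phosphatase subunit GADD34 (Ppp1r15a), which reverses the phosphorylation. In solid tumours the pathway is known as an adaptation to poor supply of nutrients and oxygen.

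ATF4 and its C/EBP partners bind composite elements whose core reads TGATGNAA on one strand and TTNCATCA on the other. The 250 bases upstream of the gene start were searched for this core on both strands, in the RefSeq promoter windows (GRCm38.p6), and no other motif was searched. Of the 41 members, 32 had an entry, and 8 of these 32 (25.0%) held a match, against 3.91% of all 27025 genes in the table. Entries were missing for Slc7a5, Nars, Aldh1l2, Ppp1r15b, Slc7a3, Cth, Slc1a5, Eif4ebp1 and Wars. Because the list gathers many genes that ATF4 is known to induce, the higher share among members is not independent support. The stretches of 7 of the 8 matched genes are shown, the motif being held by a minority of the members searched. Each is 30 bases long, 5′ to 3′ on the gene's own strand, with the match in capitals:
Chac1 (chr2:119351038-119351067, plus strand): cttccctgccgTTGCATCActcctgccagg
Asns (chr6:7693214-7693243, minus strand): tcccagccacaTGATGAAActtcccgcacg
Fgf21 (chr7:45615611-45615640, minus strand): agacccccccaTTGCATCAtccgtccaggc
Nupr1 (chr7:126625562-126625591, minus strand): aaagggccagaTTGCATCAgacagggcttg
Pck2 (chr14:55540152-55540181, plus strand): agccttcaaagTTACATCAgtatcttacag
Slc7a11 (chr3:50443651-50443680, minus strand): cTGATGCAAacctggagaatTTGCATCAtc
Gars (chr6:55037960-55037989, plus strand): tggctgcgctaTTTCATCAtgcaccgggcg

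Slc7a11 held 2 matches in opposite orientation, beginning 66 and 47 bases before its start, and the other genes shown held 1 each. Among the genes shown, the matches of Asns and Gars lay closest to the start, beginning 23 and 30 bases before it, and that of Chac1 lay farthest, at 193 bases. A match is a description of letters, and its absence from this window says nothing about ATF4 binding elsewhere.

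Levels per length were compared with the deposited FPKM, which scales reads by gene length and library size. Nars, the asparaginyl-tRNA synthetase, stood highest at a mean of 264 FPKM over the 6 tumours, followed by Atf4 at 214, the leucine transporter Slc7a5 at 132, Atf5 at 115, the mitochondrial serine enzyme Shmt2 at 109 and Gars at 103. In all, 16 members exceeded 50 FPKM: 4 of 5 synthetases, 4 of 6 serine and one-carbon enzymes, 4 of 9 transporters, Asns, Eif4ebp1, Atf4 and Atf5. Other enzymes stood lower, such as Pck2 at 20.4, Psph at 17.2 and Aldh1l2 at 8.97 FPKM. The eIF2alpha kinases stood far lower, with Eif2ak1 at 6.36, Eif2ak3 at 5.04 and Eif2ak4 at 4.06 FPKM. Fgf21 (0.842 FPKM), Slc7a3 (0.250) and Cbs (0.0407) were close to the limit of detection.

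**Figure D1:**
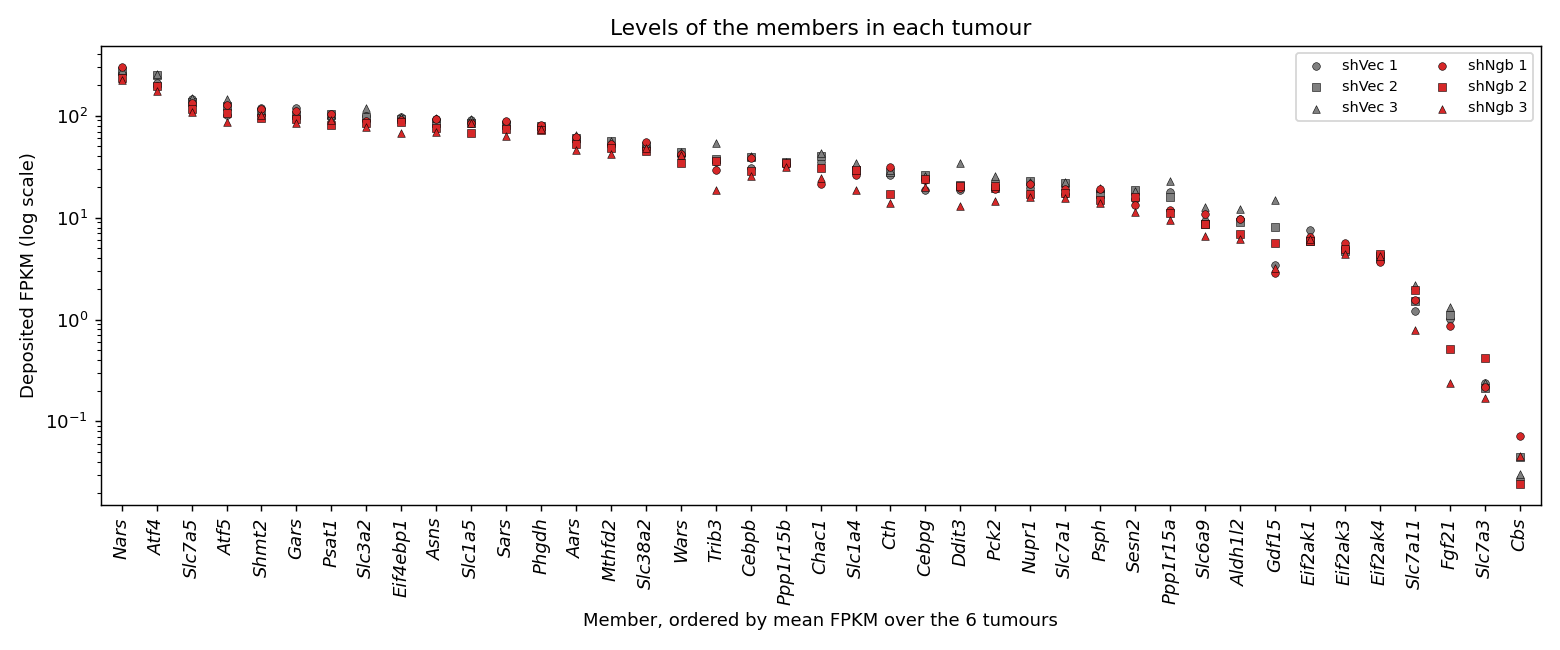
Deposited FPKM (log axis) of the 41 members in each of the 6 tumours, ordered by the mean over tumours; grey symbols are shVec and red symbols shNgb, with one symbol shape per replicate number. Levels run from 264 FPKM for Nars to 0.0407 for Cbs, and the spread between tumours is small beside the differences between genes.

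Neighbouring levels mostly lay within each other's spread. In shVec tumours Slc7a5 stood at 144 ± 5.95 FPKM and Atf5 at 124 ± 22.2 (SD, n = 3 each), while Shmt2 at 113 ± 4.80 and Gars at 109 ± 9.16 did not differ beyond their spread. Atf4 and Nars lay apart from the rest, and their order reversed when CPM was divided by the merged exon length of GENCODE M21 in kilobases. On that scale Nars stood at 161 and Atf4 at 215.5, and Cbs at 0.0183. For the other members with reads the scales were nearly equal.

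No member, and no gene at all, passed the threshold between the groups. Of 15203 tested genes, 0 (0%) had an edgeR adjusted p under 0.05, and the smallest adjusted p was 0.9997. The module nonetheless leaned one way. Of its 40 tested genes, 38 had a negative log2 fold change (lower in shNgb), where 49.1% of all tested genes did, and the median was -0.21 against 0.00 for all tested genes (0.0026 before rounding). At an unadjusted p under 0.05, 8 members were lower and 0 higher, where 1.22% of all tested genes were lower and 1.35% higher. The 3 shNgb values lay below all 3 shVec values in 7 members and above them in 0, where 3.43% and 3.67% of all tested genes did so. Since the members were listed with earlier results of these data known, these counts describe the module and are not independent support.

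**Figure D2:**
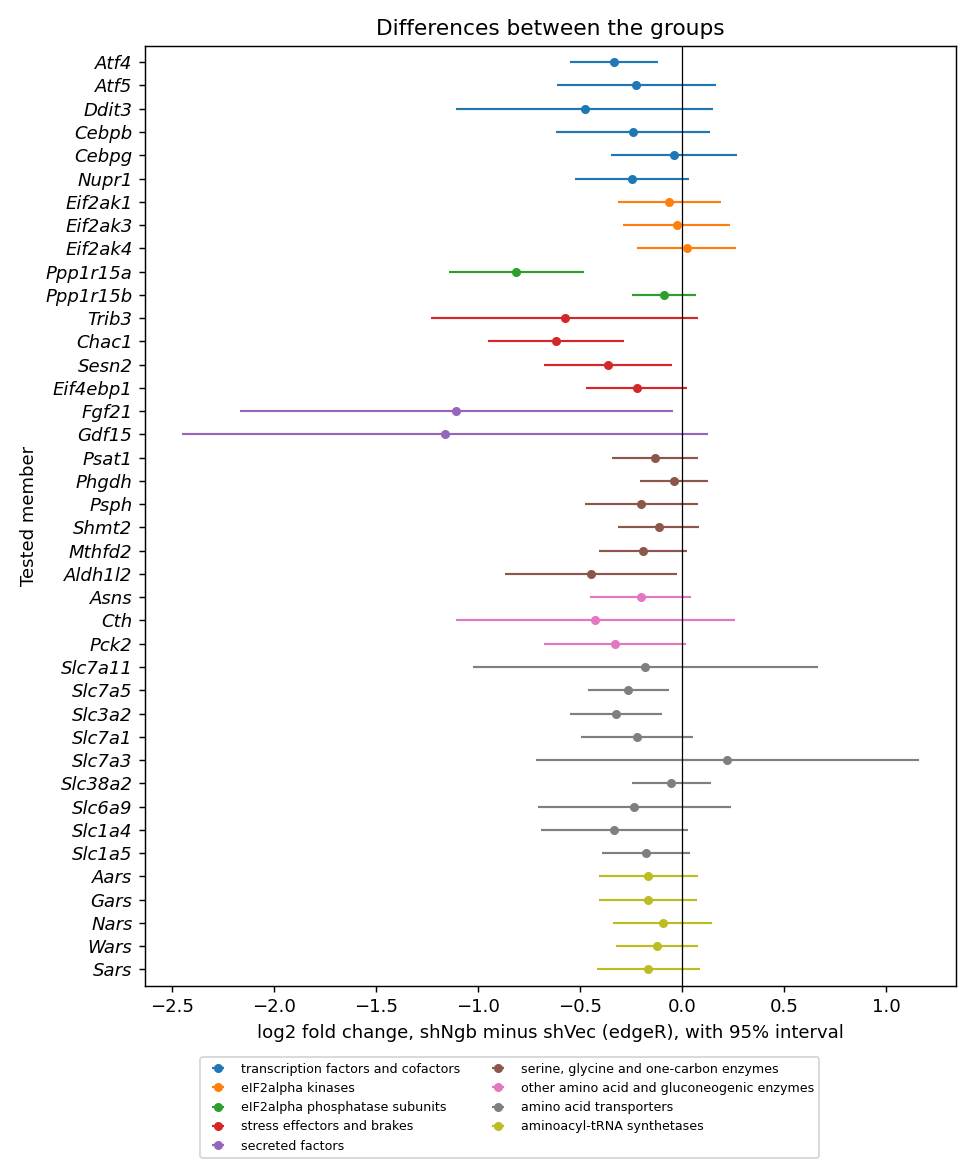
Log2 fold change (shNgb minus shVec, edgeR) of each of the 40 tested members, with its 95% interval, coloured by role. Points to the left of 0 are lower in shNgb; the intervals of 8 members lie wholly below 0, and those of the 3 eIF2alpha kinases are centred near 0.

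The transcription factors came first in order of role. Atf4 (chr15:80255184-80257541, plus strand) stood at 495, 598 and 607 CPM (reads per library total, TMM-scaled) in shVec and at 466, 468 and 415 CPM in shNgb. All 3 shNgb values were lower than any shVec value, although shVec replicate 1 lay close to them. The means were 567 ± 62.2 and 449.8 ± 29.8 CPM (SD, n = 3 each), with a log2 fold change of -0.33 (SE 0.10, 95% interval -0.55 to -0.12). The 5 other factors had log2 fold changes from -0.48 to -0.04.

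Ddit3, which encodes CHOP, stood at 32.3, 36.2 and 59.5 CPM in shVec and at 33.8, 35.3 and 22.8 CPM in shNgb. The groups overlapped, and the difference of -0.48 (SE 0.27) became -0.16 without shVec replicate 3 and -0.30 without shNgb replicate 3. The second Ddit3 gene model (ENSMUSG00000116429), a 105-base model within the 5′ part of the gene, had 0 reads in all tumours. All its bases are shared with the first model. How such reads were assigned is not given, so the 0 does not show that it was not expressed. Nupr1, a small stress-induced chromatin protein, stood at 49.1, 57.4 and 57.0 CPM in shVec and at 54.0, 43.4 and 40.5 CPM in shNgb, where replicate 1 lay within the shVec range. Its log2 fold change was -0.25 (SE 0.12).

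Atf5, a relative of Atf4 that also responds to eIF2alpha phosphorylation, ranged from 205 to 294 CPM in shVec and from 174 to 253 CPM in shNgb. Cebpb, a C/EBP partner of ATF4, ranged from 46.2 to 61.1 and from 39.2 to 58.1 CPM, and 20.7% of its exon bases are shared with Tmem189 on the opposite strand. Cebpg, the other C/EBP partner, had the smallest difference of the factors (-0.04, SE 0.14). It was 1 of 2 tested members in which no shNgb tumour lay below the lowest shVec tumour, the other being Eif2ak1.

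The kinases that start the response differed little in RNA level. Eif2ak1, the haem-regulated kinase HRI, stood at 42.8, 33.6 and 34.8 CPM in shVec and at 36.9, 34.0 and 35.6 CPM in shNgb. Eif2ak3, the endoplasmic reticulum kinase PERK, stood at 31.0, 28.7 and 32.9 CPM and at 34.0, 30.2 and 26.6 CPM. The shNgb values of Eif2ak1 all lay within the shVec range, whereas for Eif2ak3 shNgb replicate 1 lay above it and replicate 3 below it. The log2 fold changes were -0.06 (95% interval -0.32 to 0.19) for Eif2ak1, -0.03 (-0.29 to 0.24) for Eif2ak3 and 0.02 (-0.22 to 0.27) for Eif2ak4, the amino acid sensor GCN2. These values concern RNA and not kinase activity. Of the exon bases of Eif2ak1, 8.6% are shared with Aimp2 on the opposite strand.

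The phosphatase subunits that end the response stood apart from each other. Ppp1r15a (chr7:45522916-45526268, minus strand), the stress-induced subunit GADD34, stood at 52.7, 47.3 and 68.3 CPM in shVec and at 34.7, 32.9 and 28.2 CPM in shNgb. The groups were separated by a gap wider than the shNgb range. Its log2 fold change of -0.81 (SE 0.15, 95% interval -1.14 to -0.48), a fold of 0.569, had the second smallest p of all 15203 genes. That edgeR p was 0.000396, and the edgeR adjusted p was 0.9997, so the main fit did not call it. In DESeq2, which called 5 of 27832 genes (0.018%), it was the only member called (DESeq2 adjusted p = 0.00284), and without the expression filter edgeR called it too (edgeR adjusted p = 0.00805). Under all other alternatives Ppp1r15a was not called.

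Ppp1r15b, the constitutive subunit CReP, stood at 194, 197 and 199.7 CPM in shVec and at 184, 194 and 177 CPM in shNgb, with a log2 fold change of -0.09 (SE 0.07). It had the smallest relative spread of any member among shVec tumours, an SD of 1.57% of the mean. The ratio of Ppp1r15a to Ppp1r15b in FPKM was 0.542 ± 0.0994 in shVec and 0.329 ± 0.0289 in shNgb (SD, n = 3 each; two-sided exact permutation p = 0.1, the smallest that 3 against 3 allows). All 3 shNgb ratios lay below all 3 shVec ratios. Ppp1r15b varied little and Ppp1r15a did not overlap, so this separation largely restates the Ppp1r15a values. Neither the separation nor its p is independent support.

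Among effectors and brakes of the response, Chac1 (chr2:119351229-119354381, plus strand), an enzyme that degrades glutathione, showed the clearest difference. It stood at 57.8, 66.1 and 71.8 CPM in shVec and at 35.0, 51.5 and 40.9 CPM in shNgb, without overlap. The log2 difference of -0.62 (SE 0.15) had a 95% interval from -0.95 to -0.29, and by p Chac1 ranked 11 of 15203 genes. Sesn2, a leucine-binding inhibitor of mTORC1, stood at 52.8, 65.3 and 64.3 CPM in shVec and at 46.5, 55.8 and 39.5 CPM in shNgb. Here shNgb replicate 2 lay within the shVec range, and the log2 fold change was -0.36 (SE 0.14).

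Trib3, a pseudokinase that restrains ATF4 and CHOP, stood at 74.3, 80.3 and 115 CPM in shVec and at 63.2, 78.0 and 40.0 CPM in shNgb. Its difference of -0.58 (SE 0.27) had a wide 95% interval, from -1.23 to 0.08, and shNgb replicate 2 again lay among the shVec values. It became -0.36 without shVec replicate 3 and -0.35 without shNgb replicate 3. Eif4ebp1, a repressor of cap-dependent translation, ranged from 205 to 215 CPM in shVec and from 149.8 to 202 CPM in shNgb. Those groups did not overlap, and shNgb replicate 1 lay closest to the shVec range.

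Both secreted members were low and variable. Fgf21, a metabolic hormone, was counted with 21, 21 and 25 reads under shVec and with 17, 12 and 6 under shNgb, or 0.957, 1.06 and 1.27 CPM against 0.820, 0.494 and 0.230 CPM. The groups did not overlap, at a log2 fold change of -1.11 (SE 0.47) that rests on few reads. Gdf15, a stress-induced cytokine that acts on appetite, stood at 6.42, 15.2 and 27.6 CPM in shVec and at 5.35, 10.6 and 6.02 CPM in shNgb. Its difference of -1.16 (SE 0.54) stood beside an SD of 64.8% of the mean among shVec tumours, and the groups overlapped. Without shVec replicate 3 it was -0.56.

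The serine, glycine and one-carbon enzymes, which feed nucleotide and glutathione synthesis, showed a split among the shNgb tumours. In all 6 genes, shNgb replicates 2 and 3 lay below every shVec tumour, and in none did shNgb replicate 1. For Phgdh, shNgb replicate 3 lay only just below, at 186.8 CPM against 187.2 in shVec replicate 1. Of all tested genes, 24.6%, 27.1% and 21.6% lay below every shVec tumour in shNgb replicates 2, 3 and 1. The split was not confined to this role, since 16 members lay below the shVec range in replicates 2 and 3 alone. Aldh1l2, a mitochondrial folate enzyme, stood at 72.7, 69.1 and 92.4 CPM in shVec and at 73.0, 52.2 and 46.9 CPM in shNgb (log2 fold change -0.45, SE 0.18). Of its exon bases, 14.1% are shared with D10Wsu102e on the opposite strand, a gene with 19573 reads in all. Mthfd2, the mitochondrial folate dehydrogenase, stood at 177, 196 and 199.9 CPM in shVec and at 184, 169.9 and 148 CPM in shNgb (-0.19, SE 0.10).

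The pathway from glycolysis to serine, Phgdh, Psat1 and Psph, had log2 fold changes of -0.04, -0.13 and -0.20. Shmt2, which turns serine into glycine, had -0.12 (SE 0.09). In these 4 the groups overlapped, with shNgb replicate 1 within or above the shVec range. Of the exon bases of Psph, 10.4% are shared with Cct6a, which had 58360 reads in all.

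Of the other enzymes, Asns, the asparagine synthetase and a classic ATF4 target, stood at 253, 235 and 262 CPM in shVec and at 254, 208.5 and 189.96 CPM in shNgb (log2 fold change -0.20, SE 0.11). Pck2, the mitochondrial enzyme that makes phosphoenolpyruvate, stood at 179, 152 and 203 CPM in shVec and at 149.7, 162 and 114 CPM in shNgb (-0.33, SE 0.15). In each, 1 of the 3 shNgb tumours lay within the shVec range, replicate 1 for Asns and replicate 2 for Pck2. Without shNgb replicate 3 the differences were -0.12 and -0.19. Cth, the cystathionine lyase that makes cysteine, split widely, at 87.3 CPM in shNgb replicate 1 against 48.3 and 39.3 in replicates 2 and 3, with 72.8 to 82.3 CPM in shVec. Cbs, the step before Cth, had 2 to 5 reads per tumour and was not tested.

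The amino acid transporters included both chains of the leucine and glutamine exchanger. Slc3a2, its heavy chain, stood at 349, 345 and 424 CPM in shVec and at 317, 302 and 274 CPM in shNgb, without overlap (log2 fold change -0.32, SE 0.10, 95% interval -0.55 to -0.10). Slc7a5, its light chain LAT1, stood at 544, 512 and 554 CPM in shVec and at 499, 436 and 406 CPM in shNgb, also without overlap (-0.26, SE 0.09, 95% interval -0.46 to -0.06). Slc7a11, the cystine importer that pairs with the same heavy chain, did not share this separation. It ranged from 17.0 to 30.3 CPM in shVec and from 11.2 to 27.8 CPM in shNgb (-0.18, 95% interval -1.02 to 0.67).

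The neutral amino acid carriers Slc1a4 and Slc1a5 and the cationic carrier Slc7a1 had log2 fold changes of -0.33, -0.18 and -0.22. The glycine carrier Slc6a9 had -0.23 (SE 0.20), and 27.8% of its exon bases are shared with Ccdc24 on the opposite strand, which had 55 reads in all. Slc38a2, the system A carrier induced by amino acid shortage, differed by -0.05 (SE 0.09). Slc7a3 was 1 of 2 tested members with a positive value (0.22, SE 0.41), on 16 to 39 reads per tumour. Without shNgb replicate 2, which held the 39 reads, it was -0.26. The other was Eif2ak4, which was -0.04 without shVec replicate 1 or without shNgb replicate 2.

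The aminoacyl-tRNA synthetases, which load amino acids onto tRNA, had log2 fold changes from -0.17 to -0.10. Gars, the glycyl enzyme, stood at 372, 317 and 334 CPM in shVec and at 347, 296 and 269 CPM in shNgb (-0.17, SE 0.11). Aars, the alanyl enzyme, stood at 531, 560.5 and 599.9 CPM in shVec and at 578, 496 and 433 CPM in shNgb (-0.17, SE 0.11). Of its exon bases, 14.3% are shared with Exosc6 on the same strand, which had 0 reads in all. How reads in shared bases were assigned is not given, so that 0 does not show that Exosc6 was not expressed. As with the serine enzymes, shNgb replicate 2 was below every shVec tumour in all 5 genes and replicate 3 in 4, whereas replicate 1 was in none. Of all tested genes, 24.6%, 27.1% and 21.6% were so in replicates 2, 3 and 1. Wars, the tryptophanyl enzyme, which is also an interferon-induced gene, was the 1 synthetase in which replicate 3 lay within the shVec range.

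**Figure D3:**
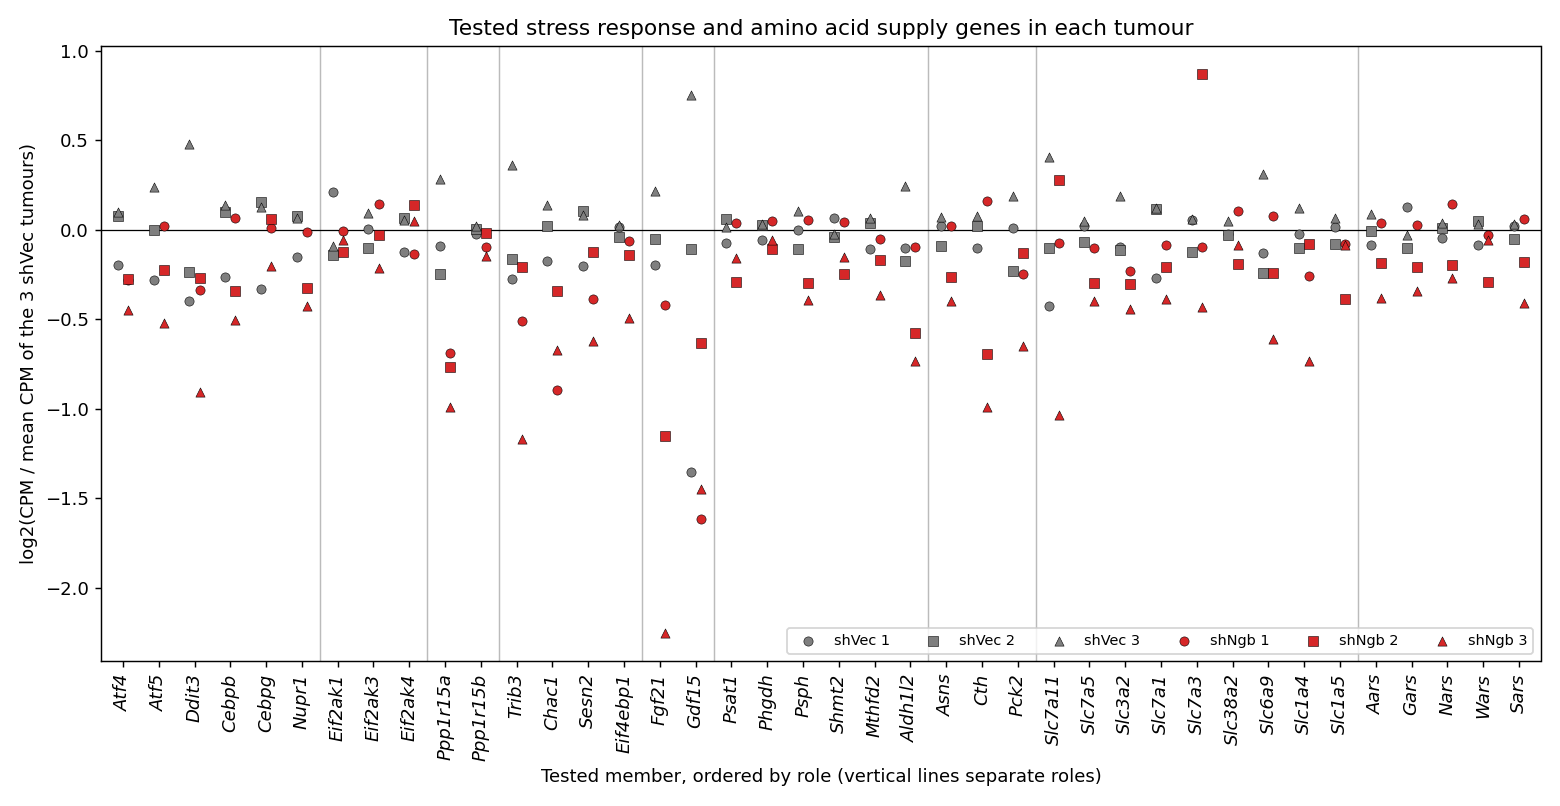
Each tested member's CPM in each tumour, as log2 of its ratio to the mean of the 3 shVec tumours, with members ordered by role; grey symbols are shVec and red symbols shNgb, with one symbol shape per replicate number. The red triangles (shNgb replicate 3) are lowest in most columns, whereas the red circles (shNgb replicate 1) sit low for Ppp1r15a, Chac1 and Sesn2 and within or above the shVec range for the serine enzymes and synthetases.

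The shNgb tumours thus differed among themselves in which roles stood low. In shNgb replicate 3, 36 of 40 tested members lay below every shVec tumour, in replicate 2, 24, and in replicate 1, 14, where 27.1%, 24.6% and 21.6% of all tested genes did so. Against the shVec mean, the median member differed by -0.42, -0.22 and -0.06 on the log2 scale in replicates 3, 2 and 1. The medians of the shVec tumours themselves ran from -0.09 to 0.09, and shNgb replicate 1 lay inside that spread. Exactly 2 shNgb tumours lay below every shVec tumour in 22 members (55.0%), where 14.04% of all tested genes did so. The share of all genes for each pair of tumours was not counted. In replicates 2 and 3 alone, 16 members lay below the shVec range, among them all 6 serine and one-carbon enzymes and 4 of 5 synthetases. In replicates 1 and 3 alone there were 6 such members, Gdf15, Pck2, Ppp1r15b, Sesn2, Slc1a4 and Trib3. In all 3 shNgb tumours there were 7, namely Atf4, Chac1, Eif4ebp1, Fgf21, Ppp1r15a, Slc3a2 and Slc7a5.

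Single tumours carried much of the shift. Of the 40 tested members, shVec replicate 3 held the highest value of all 6 tumours in 24 (60%) and shNgb replicate 3 the lowest in 29 (72.5%), where 16.4% and 20.9% of all tested genes had theirs there. Without shNgb replicate 3, 35 of 40 members were negative, the median went from -0.21 to -0.12 and 4 members were lower at an unadjusted p under 0.05. Without shVec replicate 3 these were 35, -0.16 and 4. The 4 were Atf4, Chac1, Ppp1r15a and Slc3a2 in both cases. Without shNgb replicate 1, 38 members were negative, the median was -0.32 and 20 were lower at an unadjusted p under 0.05. The share of all tested genes at that p was not counted in these fits, so the counts of 4, 4 and 20 have no background beside them.

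**Figure D4:**
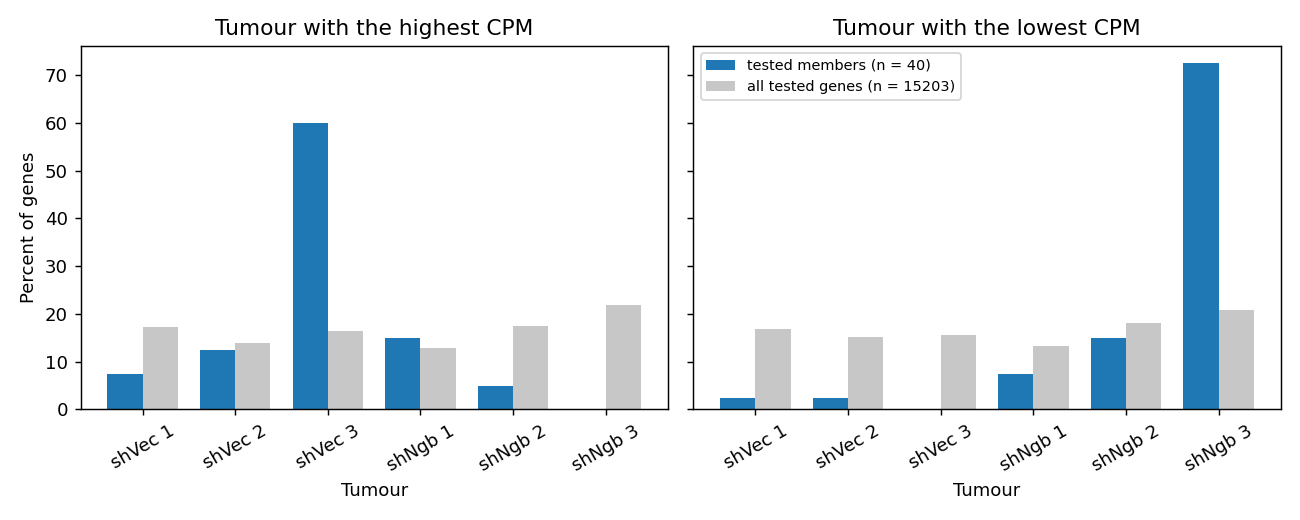
Percent of genes whose highest (left) or lowest (right) CPM of the 6 tumours fell in each tumour, for the 40 tested members (blue) and all 15203 tested genes (grey). For the members, 60% of the highest values fall in shVec replicate 3 and 72.5% of the lowest in shNgb replicate 3, while all genes are spread more evenly over the tumours.

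Members with and without an upstream match had the same median after rounding. The 8 with a match were all negative, with a median log2 fold change of -0.22 and 2 lower at an unadjusted p under 0.05 (Chac1 and Fgf21). The 23 tested members with an entry and no match had 22 negative, a median of -0.22 and 4 lower. Ppp1r15a, Atf4 and Slc3a2, which lay below the shVec range in every shNgb tumour, had no match in the window searched.

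Other genes of the pathway were read from lists apart from the members. The eIF2 and eIF2B subunits and their regulators, which set the translational part of the response, had 6 of 13 negative, a median of 0.00 (0.0022 before rounding) and 0 at an unadjusted p under 0.05 in either direction. Their 4 smallest p belonged to Eif2ak2, the double-stranded RNA kinase PKR (36.1 ± 1.69 CPM in shVec, 40.2 ± 5.48 in shNgb), Gcn1l1, the activator of GCN2 (241 ± 4.66 and 227 ± 12.9), Eif2s2, the beta subunit of eIF2 (318 ± 8.84 and 297 ± 30.6), and Eif2b4, the delta subunit of eIF2B (34.6 ± 4.23 and 37.7 ± 6.28; SD, n = 3 each).

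Further ATF4-linked genes had 19 of 24 negative, a median of -0.21, and 3 lower and 0 higher at an unadjusted p under 0.05. Of all tested genes, 1.22% were lower and 1.35% higher at that p. The list did not go 1 way only, since 5 genes were positive, up to a log2 fold change of 1.09. Without overlap 5 were lower and 1 was higher, where 3.43% and 3.67% of all tested genes were. Atf3, a stress-induced factor downstream of ATF4, stood at 13.8, 21.7 and 32.1 CPM in shVec and at 11.6, 13.3 and 9.47 CPM in shNgb. As in several members, the values were highest in shVec replicate 3 and the groups did not overlap. Herpud1, a component of endoplasmic reticulum degradation, stood at 65.1 ± 7.62 and 52.4 ± 3.21 CPM, Vegfa at 698 ± 7.08 and 438 ± 162 CPM, and Mthfd1l, a mitochondrial folate enzyme, at 112 ± 5.24 and 97.1 ± 10.5 CPM (SD, n = 3 each). Of the remaining 15 cytosolic aminoacyl-tRNA synthetases, 14 were negative at a median of -0.08, and 0 had an unadjusted p under 0.05; those of smallest p were Eprs, Iars, Lars and Vars, at -0.20, -0.16, -0.17 and -0.14.

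Levels of other programs were set beside the members. The 15 hypoxia genes stand for a program that earlier results of these data had named as co-moving. Of these, 2 (Vegfa and Ddit4) are also on the list of further ATF4-linked genes. All 15 were negative (median log2 fold change -0.55). At an unadjusted p under 0.05, 6 were lower, and 9 were lower without overlap, where 1.22% and 3.43% of all tested genes were. These counts are not independent support. The summed level of the 15 was 5661 to 5685 CPM in shVec and 5218, 4192 and 3538 CPM in shNgb replicates 1, 2 and 3. A sum is carried mostly by its most abundant genes, so it does not show how each of the 15 genes varied among the tumours. Summed macrophage markers (all 10 positive) were 95.9 to 218 CPM in shVec and 127 to 304 CPM in shNgb. T and NK cell markers (9 of 9 tested positive) summed to 4.43 to 25.3 and 4.39 to 51.2 CPM. Both sums were highest in shNgb replicate 3. No marker of either list was at 0 in every tumour. Fibroblast markers (7 of 8 tested positive) ranged from 1719 to 2083 CPM in shVec and from 1185 to 2497 CPM in shNgb, with the lowest sum in shNgb replicate 3. That sum was mostly Col3a1, the 1 negative marker, at 605 CPM in shNgb replicate 3 against 1345 to 1582 CPM in shVec. Of the others, Col1a1, Col1a2 and Thy1 were higher at an unadjusted p under 0.05, and Col1a1 did not overlap and was called by DESeq2 (DESeq2 adjusted p = 0.0443). Of all tested genes, 1.35% were higher at that unadjusted p and 3.67% were higher without overlap. Col1a1 stood at 197, 139 and 130.1 CPM in shVec and at 354, 209.7 and 281 CPM in shNgb. The summed neutrophil, endothelial and skeletal muscle markers overlapped between the groups, at no more than 11.8, 74.0 and 34.8 CPM. Both tested neutrophil markers were positive, and Csf3r was higher without overlap, while Ly6g had 0 reads in every tumour. All 5 tested muscle markers were negative (median -0.99), and endothelial markers had 5 of 8 negative. The part of these programs and cells in the differences of the members was not tested.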

How the data were processed

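RNA sequencing reads of 6 tumours were compared, 3 labelled shNgb and 3 labelled shVec. Groups and replicate numbers came from the sample titles. The deposited matrix holds raw read counts per Ensembl gene ID, and the authors also deposited 1 FPKM table per tumour. Per the submitters' processing notes, Bowtie 0.12.2 and the builds mm8 and mm10 were named without a role. How reads were assigned to genes, and with which annotation, was not given in the sources used here. Per the labels' protocols, libraries were made with the TruSeq RNA kit, which does not mark strand, so reads of overlapping genes on opposite strands cannot be told apart.

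GENCODE M21 on GRCm38 supplied symbols and coordinates and matched 54409 of 54532 IDs. The deposited FPKM values were the counts scaled by 1 factor per gene and 1 per library, to within 5.30e-09 over 11113 genes (above 50 reads in all libraries) and 1.36e-08 over the members with reads. FPKM was used only to compare levels between genes. Every pair of libraries differed by more than counting noise (chi-square over degrees of freedom 10.11 to 33.8), so none was counted as a duplicate.

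Counts were fitted across all genes with edgeR 4.0.16 in R 4.3.3: default expression filter, TMM scaling, robust quasi-likelihood F-test, Benjamini-Hochberg adjustment over all tested genes and a threshold of 0.05. The F statistic gave the standard errors, and 95% intervals are printed. CPM values are TMM-scaled. The scripts were tested on simulated counts. The fit was repeated with each tumour left out, with a block for replicate number, with DESeq2 1.42.0 and with voom of limma 3.58.1. Scaling was replaced by RLE or upper quartile, and the filter by 1 read in all or by 10 reads plus 1 CPM in at least 3 libraries.

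The members, the lists of other genes and the naming rule were chosen with earlier results of these data known. The rule took the up to 2 members of smallest p in each role, Atf4, Ddit3, Trib3, Asns and Chac1, members left untested for low reads, and the up to 4 genes of smallest p of each list of other pathway genes. Other members are given by value or range, and genes named outside the rule were chosen after their values were seen. Near-identical copies of the members were sought with blastn 2.17.0 among the GENCODE transcripts (95% identity over 250 bases) and 0 were found. Upstream sequences are from RefSeq. The stretch of 1 matched gene is not reported here.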

Additional observations from a re-analysis of the deposited data

How the results depend on the processing

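The count of genes called was 0 in edgeR and became 3 without the expression filter, 5 in DESeq2 and 1 with the replicate block. The count of members called was 0 and became 1 without the filter and 1 in DESeq2, in both cases Ppp1r15a. It was 0 under all other alternatives. Members lower at an unadjusted p under 0.05 numbered 8, and 4 to 20 when 1 tumour was left out, with 4 without shVec replicate 3 or shNgb replicate 3 and 20 without shNgb replicate 1. They numbered 7 to 11 under the alternatives that kept all tumours, and 0 members were higher in any. Each omission changes the expression filter and the genes tested as well as the tumours. The share of all tested genes at an unadjusted p under 0.05 was counted for the main fit only, so the other counts have no background.

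Of the 40 tested members, 33 kept the sign of their difference under all alternatives in which they were tested. The 7 that did not were Eif2ak1, Eif2ak3, Eif2ak4, Cebpg, Slc38a2, Slc7a11 and Slc7a3, with Cebpg reaching 0.042, Slc38a2 0.013, Slc7a11 0.112 and Slc7a3 -0.259. Leaving out 1 tumour moved 31 members by over 1.5 times, and not Aldh1l2, Atf4, Chac1, Fgf21, Ppp1r15a, Ppp1r15b, Sesn2, Slc3a2 and Slc7a5. With 1 tumour left out, Eif2ak1 ranged from -0.129 to 0.0517, positive without shVec replicate 1, and Eif2ak3 from -0.120 to 0.0562, positive without shVec replicate 3 (0.0195) or shNgb replicate 3. Atf4, Chac1, Ppp1r15a and Slc3a2 had an unadjusted p under 0.05 in all 13 alternatives. RLE and upper quartile scaling gave a member median of -0.22 and -0.20, with 38 members negative in each. Dividing reads by GENCODE exon length in place of the deposited FPKM put 4 members at another rank.

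Replicate numbers do not pair the tumours by any label. Deviations from the group means correlated across genes at 0.257, -0.145 and -0.099 for numbers 1, 2 and 3, so not every tumour matched its own number best. The replicate block left the counts of members called at 0 and lower at an unadjusted p under 0.05 at 8, with Gdf15 in and Fgf21 out. Depth limits Fgf21, Slc7a3 and Cbs, whose reads per tumour were at most 39.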
